A study of Schmidtea mediterranea with 152 samples.

Results

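Muscle cells outside the posterior pole that expressed follistatin were compared with muscle cells that did not, in regenerating and in uninjured tails of the planarian Schmidtea mediterranea. All cells came from starved animals of the asexual CIW4 strain. Regenerating cells were taken from midline posterior blastemas 72 hours after the tail was amputated, and uninjured cells from midline tail tips. Each well received 1 viable cell from outside the dividing fraction, and cDNA was prepared by the Smart-seq2 method. A well with collagen but no wnt1 by qRT-PCR was labelled a non-pole muscle cell, and a well with both a pole cell. A non-pole cell was called positive when follistatin (dd_9584) reached at least 20 CPM, the usual count scaled to a common library total, here over all its transcript reads, and negative when it had 0 reads of it. With at least 50000 transcript reads required of a cell, this gave 14 positive and 51 negative cells of the 69 regenerating non-pole cells kept, and 11 positive and 41 negative cells of the 53 uninjured ones. The remaining 4 regenerating cells (0.771 to 6.65 CPM) and 1 uninjured cell (5.44 CPM) lay between the classes, and the series kept 12 pole cells besides. The labels name no animal, plate or culture, so all cells of a condition are 1 sample. Therefore no test was made between the classes, and intervals given with a value are exact 95% intervals that cover counting error only, since amplified reads without molecular identifiers are not independent molecules.

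Follistatin is a secreted protein that binds and inhibits Activin, a ligand of the TGF-beta family. In planarians it is expressed at the anterior pole and at wounds, and it is required for regeneration. Planarian body-wall muscle is more than a contractile tissue: its fibres express position control genes, secreted signals and receptors that tell neighbouring cells where they lie along the body axes. Longitudinal fibres depend on the transcription factor myoD, and circular fibres on the homeobox gene nkx1-1. The wound-induced expression of follistatin and of notum, a Wnt inhibitor, is known from longitudinal muscle.

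The label non-pole muscle rests on the qRT-PCR screen, whose primers are given here because they decided which cells entered the comparison. The pair for col21a1, one of the transcripts read more in positive cells of both conditions, is the one the study used to work with that gene. All are printed 5′ to 3′ in lower case, with no position marked.
wnt1 forward: gtgacattatgctcaaaggatttcc
wnt1 reverse: acggacagtgtgataacttaaacg
collagen forward: ggtgtacttggagacgttggttta
collagen reverse: ggtctaccttctcttcctggaac
col21a1 forward: tggtgacaaatgaatgctcact
col21a1 reverse: accaggatcaccttgggga

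The reads bore out the labels for many cells but not for all. In regenerating tails wnt1 was read in 0 of 14 positive and 2 of 51 negative cells, and in uninjured tails in 2 of 11 positive and 4 of 41 negative cells, whereas all 12 pole cells had reads of it. Those 2 uninjured positive cells, replicates 5 and 8, had 224 and 49.6 CPM of wnt1. The uninjured pole cells had 184.9 to 2844 CPM, apart from pole replicate 1, and positive replicate 5 lay within that range. Pole replicate 1 had 23.6 CPM of wnt1, with 84813 reads and 471.6 CPM of collagens. Positive replicate 8 lay within the range of pole cells only through that cell, as did negative replicate 13 at 26.3 CPM. Summed over 13 collagen transcripts, the median level was 65174 CPM in positive and 54049 CPM in negative regenerating cells, and 96412 CPM in positive and 60167 CPM in negative uninjured cells. Collagens were nearly absent from some cells: below 5000 CPM lay 0 of 14 positive and 6 of 51 negative regenerating cells, and 1 of 11 positive and 11 of 41 negative uninjured cells. In those 11 uninjured negative cells contractile transcripts summed to 99.7 to 6213 CPM. The median over all 41 was 33317.5 CPM, so that the label muscle is weakly borne out for the 11. Depth was unequal in opposite ways, with a median of 162373 transcript reads in positive and 219558 in negative regenerating cells, but 1368734 in positive and 411665 in negative uninjured cells, and its part in the differences was not tested. The uninjured positive cells hold 2 libraries that stand apart: replicate 59 had 141.4 CPM of collagens, and replicate 42 had 1324 transcripts with a read in spite of 3304691 reads. Shares of cells with a read are given after every cell was thinned to 50000 reads.

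Follistatin itself, which chose the cells, is described without comparison. Positive cells ranged from 38.6 CPM (replicate 27, 2 reads) over a median of 222 CPM to 627 CPM (replicate 44) in regenerating tails, and from 47.3 CPM (replicate 27) over a median of 250 CPM to 752 CPM (replicate 42) in uninjured tails. The share of positive cells was 20.3% of 69 non-pole cells in regenerating tails (Clopper-Pearson interval 11.6 to 31.7%) and 20.8% of 53 in uninjured tails (10.8 to 34.1%). A read of follistatin remained after thinning in 13 of 69 and 11 of 53 cells. The intervals of these shares treat cells as draws from 1 sample per condition and do not cover variation between animals, and the 2 shares were not compared. Negative is a statement about reads: in 15 of 51 regenerating and 10 of 41 uninjured negative cells, even 3 reads would have been more than 20 CPM. For context, follistatin was read in 5 of 5 regenerating pole cells, at 327 to 2836 CPM, and in 1 of 7 uninjured pole cells, at 1020 CPM.

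**Figure D1:**
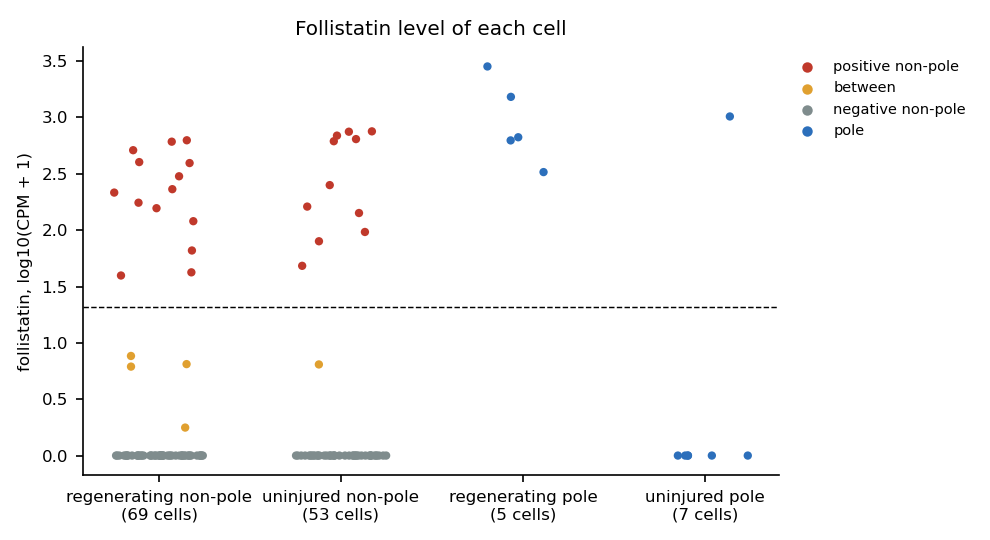
Follistatin level of each kept cell as log10(CPM + 1), in regenerating and uninjured non-pole and pole cells; red, orange and grey points are positive, between and negative non-pole cells, blue points are pole cells, and the dashed line marks 20 CPM. Positive cells lie between 38.6 and 627 CPM in regenerating and between 47.3 and 752 CPM in uninjured non-pole cells.

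The question for the blastema was which other transcripts distinguish the muscle cells that express follistatin. A transcript with at least 20 reads over both classes was counted as higher or lower when its summed CPM and its mean CPM over cells both differed at least 2-fold, each with 1 CPM added. In regenerating cells 1295 of 13452 transcripts were higher in positive cells (9.63%) and 4494 were lower (33.4%), with a median log2 fold of summed CPM of −0.54 over all transcripts tested. Most of these calls rest on few cells. A single cell held more than 50% of the reads in the positive class for 889 of the 1295 higher transcripts, and 2446 of the 4494 lower ones had 0 reads in the positive class. Among the 1675 transcripts read in at least 50% of the cells after thinning, 2.81% were higher and 6.99% lower, and the median was −0.06. The transcripts described one by one were therefore read in at least 50% of the cells of the class in which they were high, with no cell holding more than 50% of the reads, or belong to a gene list.

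The regulators of muscle fibre type stood out in the blastema. myoD (dd_12634) was read in 8 of 14 positive cells (57.1%, interval 28.9 to 82.3%) and in 9 of 51 negative cells (17.6%, 8.4 to 30.9%). Its level per positive cell was 0 to 1294 CPM with a median of 505 CPM, and per negative cell 0 to 937 CPM with a median of 0 CPM, so that the ranges overlapped. Summed, myoD had 652 CPM (622 to 683) in positive and 77.5 CPM (73.2 to 82.03) in negative cells, a ratio of 8.41 (7.82 to 9.05). The ratio did not hang on 1 cell: leaving out each positive cell in turn gave log2 folds of 2.84 to 3.18, against 3.06 with all. The homeobox gene nkx1-1 (dd_19327) was read in 4 of 14 positive cells, at 242, 501, 557 and 2102 CPM, and in 7 of 51 negative cells. It summed to 152.1 CPM in positive and 66.2 CPM in negative cells, and was no longer called without replicate 5 (log2 fold 0.0043 at the lowest) or without replicate 70.

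No positive blastema cell had reads of both regulators. Of the 14 cells, 8 had myoD, 4 had nkx1-1 and 2 had neither, whereas 36 of the 51 negative cells had neither and 1 had both. Seen from the other side, 8 of the 17 cells with myoD and 4 of the 11 cells with nkx1-1 were positive. The 2 positive cells with neither, replicates 26 and 27, had a median depth of 55154 reads, against 202346 in the other 12. Thus a follistatin positive cell of the blastema was usually a cell with a read of a longitudinal or a circular fibre regulator, while more of the cells with either regulator were negative than positive.

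**Figure D2:**
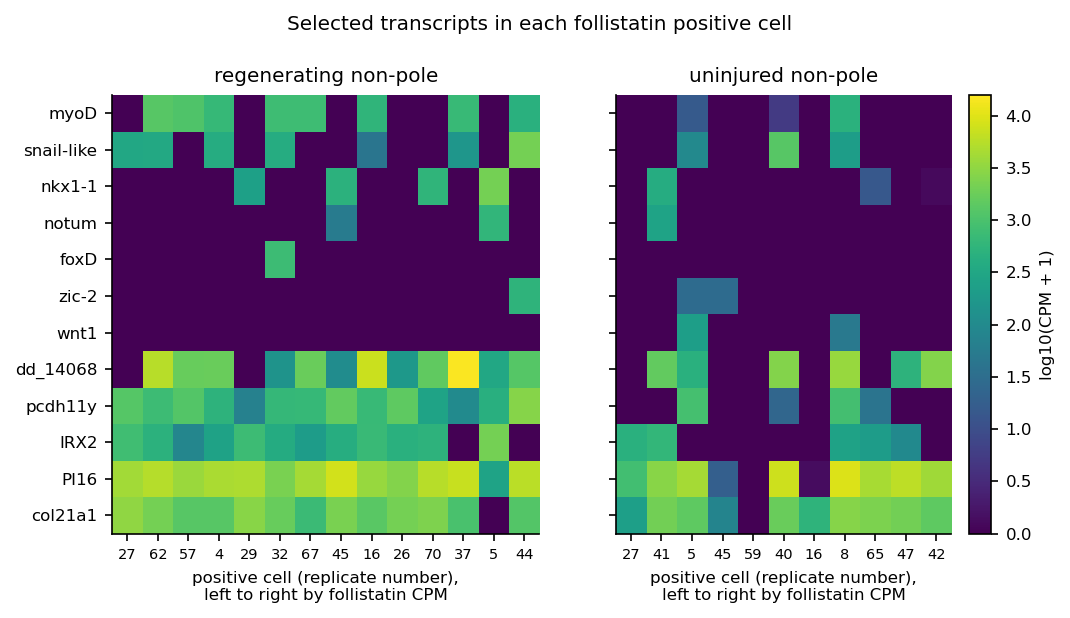
Level of 12 transcripts as log10(CPM + 1), by colour, in each positive cell, with the 14 regenerating cells in the left panel and the 11 uninjured cells in the right panel, ordered from left to right by follistatin CPM and labelled by replicate number. myoD and nkx1-1 occupy different regenerating cells, and PI16 is read in all 14 of them.

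The transcription factor snail-like (dd_10216), of the Snail zinc-finger family, was read in 7 of 14 positive and 6 of 51 negative regenerating cells. It reached 2074 CPM in replicate 44 and lay between 41.3 and 403 CPM in the other 6 positive cells with reads. Summed, it had 281 CPM in positive and 23.8 CPM in negative cells, a ratio of 11.8 (10.4 to 13.4). Reads of snail-like and myoD fell in the same cells: 6 of the 7 positive and 6 of the 6 negative cells with snail-like also had myoD, and none had nkx1-1. The 4th member of the fibre list, snail-1 (dd_15506), had 0 reads in any positive or negative cell of either condition.

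A group of transcripts without annotation by the study had the same distribution. dd_15243 was read in 7 of 14 positive and 4 of 51 negative regenerating cells, at 438 CPM in positive and 24.6 CPM in negative cells (ratio 17.8, 15.8 to 19.98). All 7 positive cells and all 4 negative cells with dd_15243 had myoD. dd_31435 (241 CPM in positive and 24.1 CPM in negative cells) was read in 8 positive cells, 7 of them with myoD, and in 6 negative cells, all 6 with myoD. The epidermal growth factor gene egf-6 (dd_6222), which encodes a secreted ligand, had 144.5 CPM in positive and 28.99 CPM in negative cells. It was read in 8 positive cells, 6 of them with myoD, and in 4 negative cells, all 4 with myoD. In the blastema these 3 transcripts, like snail-like, were read almost only where myoD was read, whether or not the cell was positive. In uninjured tails 1 of 3 positive cells with dd_15243 and 1 of 3 with snail-like had myoD. So did 1 of 2 with dd_31435 and 1 of 2 with egf-6. Among uninjured negative cells the counts were 1 of 2, 3 of 4, 1 of 1 and 1 of 5, in that order.

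Other high transcripts were spread over cells with either regulator, except dd_13509. Of the 8 positive cells with dd_13509, 6 had myoD and 1 had nkx1-1. Of its 8 negative cells, 4 had myoD, 0 had nkx1-1 and 4 had neither. dd_14068 was read in 12 of 14 positive and 24 of 51 negative regenerating cells, with 0 to 15138 CPM and a median of 1375 CPM per positive cell, and 0 to 2738 CPM and a median of 1.66 CPM per negative cell. Its sums were 3822 CPM in positive and 342 CPM in negative cells (ratio 11.2, 10.8 to 11.5), which makes it one of the most abundant transcripts among those that differed. dd_9795 had 590 CPM in positive and 90.9 CPM in negative cells, and was read in 10 of 14 and 8 of 51 cells. dd_12679 had 787 CPM in positive and 115.2 CPM in negative cells, dd_13509 had 388 CPM in positive and 53.99 CPM in negative cells, and dd_17749 had 103.3 CPM in positive and 5.96 CPM in negative cells. dd_15433 was read in 7 of 14 positive but only 2 of 51 negative cells, at 101.5 CPM in positive and 5.002 CPM in negative cells (ratio 20.3, 15.7 to 26.4). The transcript dd_10379 had 145.96 CPM in positive and 20.7 CPM in negative cells. None of these 7 calls was lost when any positive cell was left out.

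Several transcripts annotated by the study followed. The protocadherin gene pcdh11y (dd_9677), which encodes a cell adhesion protein, was read in all 14 positive cells, at 69.2 to 2773 CPM with a median of 658 CPM, and in 18 of 51 negative cells, at 0 to 2163 CPM with a median of 0 CPM. Its sums were 805 CPM in positive and 123.7 CPM in negative cells (ratio 6.51, 6.12 to 6.92). TNC (dd_6736), named for the matrix glycoprotein tenascin C, had 1774 CPM in positive and 387 CPM in negative cells. FREM1 (dd_5187), a matrix protein of basement membranes in vertebrates, had 667 CPM in positive and 243 CPM in negative cells, and ADAMTSL3 (dd_3852), a secreted matrix glycoprotein, 265 CPM in positive and 52.8 CPM in negative cells. The homeobox gene IRX2 (dd_11500) was read in 11 of 14 positive and 13 of 51 negative cells, with 427 CPM in positive and 138.3 CPM in negative cells. The lysosomal acid phosphatase ACP2 (dd_6931) had 86.3 CPM in positive and 19.2 CPM in negative cells, and ANO8 (dd_6809), of the anoctamin membrane protein family, 195 CPM in positive and 45.4 CPM in negative cells. The call for FREM1 was lost when any read of follistatin made a cell positive, and without replicate 37.

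Because regulator reads and follistatin went together, the comparison was repeated, as a choice made after these values were seen, within the regenerating cells that had a read of myoD or nkx1-1. This set 12 positive against 15 negative cells, with median depths of 202346 and 258441 reads. Within this set, which reuses cells of the comparison above, 1629 of 10117 transcripts tested were higher (16.1%) and 2799 lower (27.7%). dd_14068 kept a log2 fold of 2.41 (3977 CPM in positive and 749 CPM in negative cells), snail-like kept 2.02 (287 CPM in positive and 70.1 CPM in negative cells), and dd_15433 kept 2.75. In contrast, IRX2 had 418 CPM in positive and 361 CPM in negative cells of this set, PI16 (dd_5321) 4408 and 3526 CPM, and col21a1 (dd_9565) 1490 and 1630 CPM. For these 3 genes the log2 folds were 0.21, 0.32 and −0.13, so that positive and negative cells with a fibre regulator had similar levels. Reads of myoD and nkx1-1 chose the set, so that their own folds within it are a description and not a result. myoD had 679 CPM in positive and 228 CPM in negative cells of the set, with a log2 fold of 1.57 for the sums and 0.91 for the means. pcdh11y had log2 folds of 1.56 and 0.39, and did not meet both criteria. Of the transcripts above, TNC (log2 fold of sums 0.82), FREM1 (0.27), ACP2 (0.79), egf-6 (0.77), ANO8 (1.503, with 0.92 for the means), dd_9795 (1.17 and 0.81) and dd_31435 (1.65 and 0.76) were not called there either. ADAMTSL3, dd_15243, dd_12679, dd_13509, dd_17749 and dd_10379 were still called higher.

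Among the widely read transcripts lower in positive blastema cells, dd_9259 had the largest fold, with 12.6 CPM in positive and 553 CPM in negative cells. It was read in 4 of 14 positive and 30 of 51 negative cells. Within the cells with a fibre regulator its levels were 10.5 CPM in positive and 7.37 CPM in negative cells, and 26 of the 30 negative cells with dd_9259 had neither regulator. ESRP2 (dd_7995), named for an epithelial splicing regulator, had 19.5 CPM in positive and 267 CPM in negative cells, dd_921 had 5.78 CPM in positive and 162 CPM in negative cells, dd_6994 had 8.31 CPM in positive and 85.4 CPM in negative cells, and dd_3431 had 8.67 CPM in positive and 79.1 CPM in negative cells. When any read of follistatin made a cell positive, the calls of dd_921 (log2 fold −0.59) and dd_3431 (−0.73) were lost. The splicing factor SF3B1 (dd_2754) had 24.9 CPM in positive and 108.95 CPM in negative cells, gcr158 (dd_10399) 18.4 CPM in positive and 123.8 CPM in negative cells, and C4orf29 (dd_4249) 30.3 CPM in positive and 92.8 CPM in negative cells. UNC5C (dd_16435), named for a netrin receptor, had 0 reads in the 14 positive cells and 172 CPM in negative cells, where 21 of 51 cells had reads. With the limit of 3 reads over the positive class, it was at least 159-fold lower. However, 19 of those 21 negative cells had neither regulator. Within the cells with a fibre regulator this transcript had 0 CPM in positive and 49.7 CPM in negative cells. The other transcript named UNC5C, dd_10730, chosen here after its values were seen, went the other way, with 321 CPM in positive and 86.8 CPM in negative cells.

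In uninjured tails the same comparison gave 2558 higher transcripts (14.8%) and 6609 lower ones (38.3%) of 17258 tested, with a median log2 fold of −1.05. A single cell held more than 50% of the reads in the positive class for 2417 of the 2558 higher transcripts, and 3648 of the 6609 lower ones had 0 reads in the positive class. Among the 1165 transcripts read in at least 50% of the cells, 6.18% were higher and 12.2% lower, and the median was −0.27. Positive cells were the deeper class here and, as in the blastema, the smaller one, and the part of depth and cell number in the lower calls was not tested.

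myoD did not distinguish uninjured positive cells. It was read in 1 of 11 positive and 4 of 41 negative cells after thinning, at 17.3 CPM in positive and 38.1 CPM in negative cells, and 95.9% of its positive reads came from replicate 8. nkx1-1 was read in 2 of 11 positive cells and 1 of 41 negative cells, at 57.5 CPM in positive and 0.172 CPM in negative cells, with 99.8% of the reads in replicate 41 and a log2 fold of −0.0080 without that cell. snail-like had 163 CPM in positive and 40.6 CPM in negative cells, with 94.6% of the positive reads in replicate 40 and a log2 fold of −1.90 without it. Most uninjured cells had no read of myoD or nkx1-1 after thinning, namely 8 of 11 positive and 36 of 41 negative cells. Without thinning, 5 of 11 positive and 33 of 41 negative cells had neither. There myoD was read in 3 positive and 7 negative cells, and nkx1-1 in 3 positive cells and 1 negative cell. Whether follistatin goes with fibre type in the uninjured tail was therefore not resolved by these cells, since 1 cell held most of the positive reads of each regulator.

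Widely read transcripts that were higher in uninjured positive cells are given next. DCHS1 (dd_11744), named for the large cadherin dachsous, had 368 CPM in positive and 31.3 CPM in negative cells (ratio 11.7, 10.9 to 12.6), with reads in 6 of 11 and 9 of 41 cells. COL4A6 (dd_2500), a basement membrane collagen, had 2983 CPM in positive and 1353 CPM in negative cells, a call that was lost without the cells low in collagens (log2 fold 0.89), with positive set at 100 CPM (0.99), and without replicate 40, 41 or 42 (0.84 at the lowest). PDE4C (dd_7735), a phosphodiesterase that degrades cyclic AMP, had 287 CPM in positive and 91.8 CPM in negative cells. Without annotation, dd_7811 had 1811 CPM in positive and 417 CPM in negative cells, dd_10633 had 1229 CPM in positive and 205 CPM in negative cells, dd_593 had 464 CPM in positive and 107.8 CPM in negative cells, and dd_6479 had 177 CPM in positive and 33.3 CPM in negative cells. dd_763 (118.9 CPM in positive and 19.1 CPM in negative cells), dd_1596 (100 and 16.9 CPM) and dd_24397 (50.9 and 7.92 CPM) were also among the 10 that ranked highest by the smaller of their folds of sums and means, as were dd_14068 and PI16.

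Among the widely read transcripts lower in uninjured positive cells, those with the largest folds were dd_764, with 0.284 CPM in positive and 197 CPM in negative cells, and dd_805, with 0.0710 CPM in positive and 93.8 CPM in negative cells. After thinning, no positive cell had a read of either, while 22 and 21 of 41 negative cells did. dd_4202 had 0.852 CPM in positive and 120 CPM in negative cells, and dd_7768 had 2.06 CPM in positive and 102.2 CPM in negative cells. Among annotated genes, GRIN1 (dd_5682), named for a subunit of the NMDA glutamate receptor, had 1.56 CPM in positive and 123.6 CPM in negative cells, with reads in 1 of 11 and 22 of 41 cells. Its levels in the blastema were 364 CPM in positive and 231 CPM in negative cells, and it was not called there. Prohormone convertase 2 (dd_1566), which processes neuropeptide precursors, had 21.3 CPM in positive and 94.6 CPM in negative uninjured cells, and the nuclear import receptor IPO5 (dd_665) had 12.9 CPM in positive and 155 CPM in negative cells.

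Set side by side, the conditions shared few higher transcripts. Of the 12448 transcripts tested in both, 202 were higher in positive cells of both conditions (1.62%). They were 17.4% of the 1158 higher in the blastema, where 12.6% of all 12448 were higher in the uninjured tail, and 12.8% of the 1573 higher in the uninjured tail, where 9.30% of all were higher in the blastema. Another 442 of the 1158, 38.2%, were lower in uninjured positive cells, beside 37.6% of all transcripts. Lower transcripts were shared more often in number, 1902 of 12448 (15.3%), which were 48.1% of the 3956 lower in the blastema and 40.6% of the 4686 lower in the uninjured tail, beside 37.6% and 31.8% of all. Across the 12448 transcripts the log2 folds of the 2 conditions had a Pearson r of 0.16 and a Spearman rho of 0.11, and across the 986 read in at least 50% of the cells of both conditions 0.08 and 0.07. Transcripts are not independent replicates, and these coefficients only describe the same cells.

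**Figure D3:**
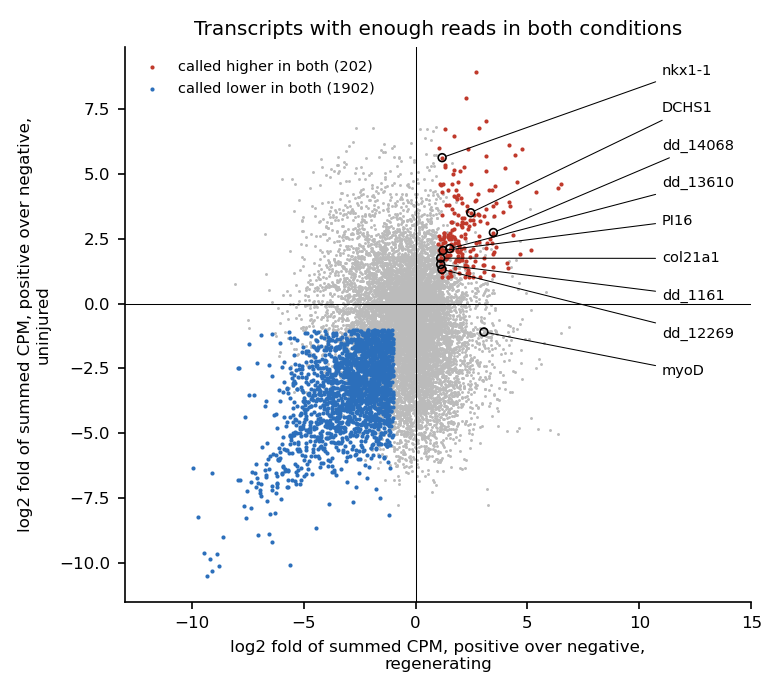
Log2 fold of summed CPM, positive over negative, in regenerating cells (horizontal axis) and uninjured cells (vertical axis) for the 12448 transcripts tested in both; red and blue points are the 202 and 1902 transcripts called higher and lower in both, and circles mark named transcripts. myoD lies right of 0 for regenerating cells (3.06) and below 0 for uninjured cells (−1.09).

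Of the 202 shared transcripts, 7 were also widely read in the positive cells of both conditions. dd_14068, described above for the blastema, had 1354 CPM in positive and 201 CPM in negative uninjured cells, and was read in 6 of 11 and 6 of 41 cells. PI16, named for a secreted peptidase inhibitor, was read in 14 of 14 positive and 38 of 51 negative regenerating cells, at 275 to 8312 CPM with a median of 4444 CPM per positive cell and 0 to 7959 CPM with a median of 610 CPM per negative cell. In uninjured tails PI16 was read in 9 of 11 positive and 10 of 41 negative cells, with medians of 3931 CPM and 0 CPM. Its sums were 4366 CPM in positive and 1860 CPM in negative regenerating cells, and 3346 CPM in positive and 804 CPM in negative uninjured cells. The levels of single cells overlapped in both conditions, but the class medians lay far apart.

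col21a1, a collagen gene that the study lists among the targets of the nuclear receptor nr4A, was read in 13 of 14 positive and 19 of 51 negative regenerating cells and in 10 of 11 positive and 11 of 41 negative uninjured cells. It had 1534 CPM in positive and 703 CPM in negative regenerating cells, and 1302 CPM in positive and 384 CPM in negative uninjured cells. DCHS1 had 308 CPM in positive and 54.9 CPM in negative regenerating cells, beside the uninjured values above. Of those without annotation, dd_1161 was read in all 14 regenerating positive cells, at 2213 to 11361 CPM, and in 10 of 11 uninjured positive cells, with sums of 5289 CPM in positive and 2427 CPM in negative regenerating cells and 5721 CPM in positive and 1996 CPM in negative uninjured cells. dd_13610 had 1306 CPM in positive and 453 CPM in negative regenerating cells, and 985 CPM in positive and 224 CPM in negative uninjured cells. dd_12269 had 434 CPM in positive and 191 CPM in negative regenerating cells, and 210 CPM in positive and 83.4 CPM in negative uninjured cells. Its call was lost without replicate 44 in the blastema (log2 fold of summed CPM 0.93 at the lowest) and without replicate 40 in the uninjured tail (0.84). Uninjured replicate 59, the positive cell low in collagens, had 0 reads of PI16, col21a1 and dd_1161. Without the cells low in collagens, dd_1161 and col21a1 had a log2 fold of 0.97 each in the blastema and no longer met the 2-fold criterion there, while PI16, DCHS1, dd_13610 and dd_14068 did so in both conditions. Within the regenerating cells with a fibre regulator, 5 of the 7 were not called, namely PI16, col21a1, DCHS1 (log2 fold 1.46 for the sums and −0.25 for the means), dd_13610 (0.84) and dd_1161 (0.26), while dd_14068 and dd_12269 were. PI16 also missed the criterion in the blastema when any read made a cell positive (0.93), as did dd_12269 (0.63).

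**Figure D4:**
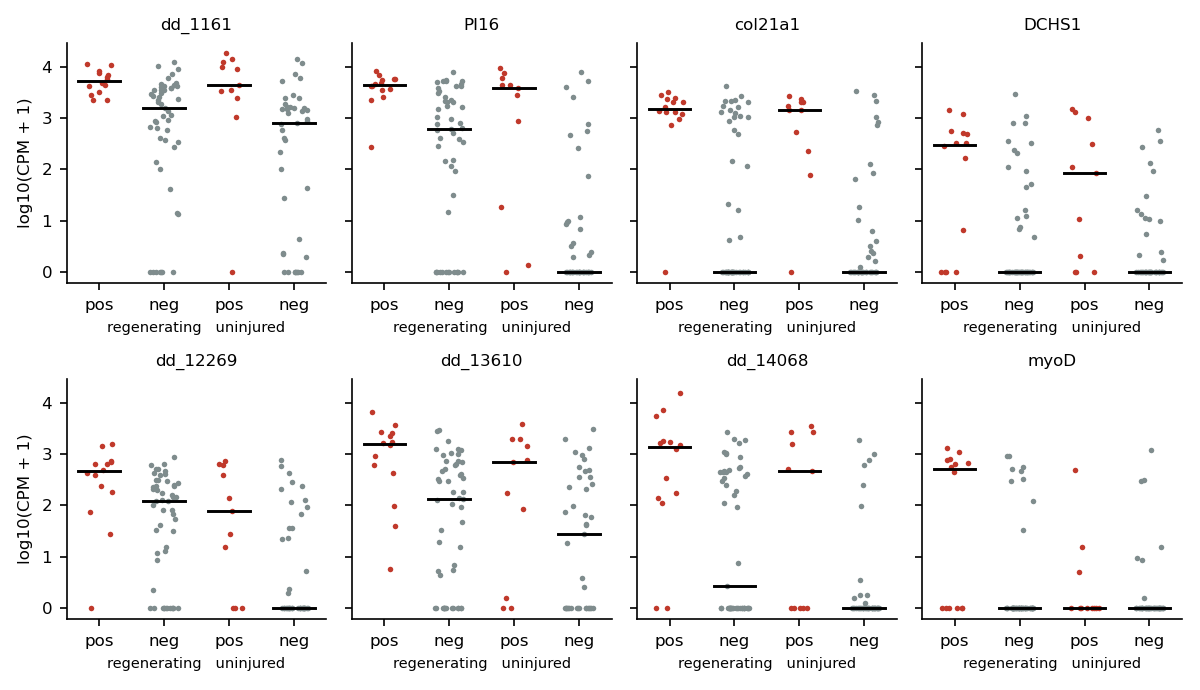
Level per cell, as log10(CPM + 1), of the 7 transcripts that were higher and widely read in positive cells of both conditions and of myoD; red points are positive and grey points negative cells, regenerating on the left and uninjured on the right of each panel, with bars at the medians. The medians of PI16 are 4444 and 610 CPM in positive and negative regenerating cells, and 3931 and 0 CPM in positive and negative uninjured cells.

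Lower in positive cells of both conditions were, among widely read transcripts, dd_141 with 51.3 CPM in positive and 424 CPM in negative regenerating cells and 85.2 CPM in positive and 603 CPM in negative uninjured cells. Its call in the blastema was lost when any read made a cell positive (log2 fold −0.35). TRIM9 (dd_8386), named for a ubiquitin ligase of neurons in mammals, had 134.4 CPM in positive and 496 CPM in negative regenerating cells, and 284 CPM in positive and 937 CPM in negative uninjured cells. Within the regenerating cells with a fibre regulator, TRIM9 had 139.2 CPM in positive and 149.1 CPM in negative cells. FGFR4 (dd_11024), named for a receptor of fibroblast growth factors, had 41.2 CPM in positive and 165 CPM in negative regenerating cells, and 57.7 CPM in positive and 166 CPM in negative uninjured cells. FGFR4 kept its direction among the cells with a regulator (41.01 CPM in positive and 330 CPM in negative cells). dd_5011 had 33.6 CPM in positive and 107.9 CPM in negative regenerating cells, and 9.59 CPM in positive and 230 CPM in negative uninjured cells.

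Several named transcripts went in opposite directions in the conditions, although the difference between conditions was not tested. dd_15433, higher in positive blastema cells, had 0 reads in the 11 uninjured positive cells and 28.95 CPM in negative cells. It was at least 135.9-fold lower with the limit of 3 reads, but only 6 of 41 negative cells had reads of it after thinning. dd_10379 had 5.75 CPM in positive and 140 CPM in negative uninjured cells. mitfl-2 (dd_7316), of the MITF family of transcription factors, had 145.2 CPM in positive and 52.4 CPM in negative regenerating cells, but 5.47 CPM in positive and 115.1 CPM in negative uninjured cells. Its call in the blastema was lost when any read made a cell positive (log2 fold 0.76). The reverse held for dd_3431, which had 318 CPM in positive and 53.1 CPM in negative uninjured cells, and for dd_10633, with 3.97 CPM in positive and 48.03 CPM in negative regenerating cells. For dd_3431 the uninjured call was lost without replicate 42, where the log2 fold fell to 0.46 at the lowest.

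Partners of follistatin were examined next, through a list of 7 Activin and BMP pathway transcripts named by the study, which does not hold the Activin ligand itself. In regenerating cells 1 of 6 tested was higher and 0 were lower, with a median log2 fold of 0.36 beside −0.54 over all transcripts, and in uninjured cells 0 of 7 were higher and 3 lower (median −0.92 beside −1.05). Of all transcripts tested, 9.63% were higher and 33.4% lower in regenerating cells, and 14.8% and 38.3% in uninjured cells, and in lists this short 1 member moves a share by more than 10 percentage points. The higher one was noggin 1 (dd_15423), a secreted BMP inhibitor. It was read in 2 positive regenerating cells, replicates 16 and 37, at 297 and 228 CPM, both with myoD, and in 1 negative cell at 123.6 CPM. In uninjured positive cells noggin 1 had a single read.

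The receptor ACVR1 (dd_7151) had 25.3 CPM in positive and 10.5 CPM in negative regenerating cells, and 5.11 CPM in positive and 3.51 CPM in negative uninjured cells, with no call in either. The signal transducers Smad1 (dd_6877) and smad4 (dd_1923) were not called in regenerating cells, where Smad1 had 17.7 CPM in positive and 19.3 CPM in negative cells, and smad4 41.9 CPM in positive and 111.003 CPM in negative cells. In uninjured cells Smad1 had 16.3 CPM in positive and 19.9 CPM in negative cells, while smad4 was called lower, with 23.3 CPM in positive and 111.7 CPM in negative cells. This smad4 call was lost under another scaling of the classes (TMM) and with positive set at 100 CPM. The pseudoreceptor bambi (dd_11062) had 29.6 CPM in positive and 76.1 CPM in negative regenerating cells, and 22.2 CPM in positive and 114.6 CPM in negative uninjured cells. The ligand BMP (dd_17402) was read in 1 positive regenerating cell, at 388 CPM, and had 0.0710 CPM in positive and 13.3 CPM in negative uninjured cells. Only 2 of 41 negative uninjured cells had reads of BMP after thinning, and its call as lower was lost when any read of follistatin made a cell positive. TLL1 (dd_1967), named for a protease that cleaves BMP antagonists, had 0 reads in either regenerating class and 21.4 CPM in positive and 27.7 CPM in negative uninjured cells. Beyond noggin 1 in a pair of cells, no member of the list was called higher in positive cells.

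Genes of the anterior pole, where follistatin is best known, were rare in these tail cells. foxD (dd_23249), a forkhead factor of the anterior pole, was read in 1 of 14 positive regenerating cells, replicate 32, at 744 CPM and together with myoD, and had 0 reads in 51 negative cells, which makes its sum of 114.2 CPM at least 593-fold higher. Only 1 cell carries that value. notum (dd_24180) was read in regenerating positive replicates 45 and 5, at 54.1 and 583 CPM, and in uninjured positive replicate 41, at 275 CPM. All 3 cells had nkx1-1 and none had myoD. Among negative cells with notum, 1 of 2 regenerating cells had myoD and 1 had nkx1-1, while the 2 uninjured cells had neither. The sums of notum were 26.01 CPM in positive and 2.76 CPM in negative regenerating cells, and 39.1 CPM in positive and 5.61 CPM in negative uninjured cells. Its log2 folds were −0.58 without regenerating replicate 5 and −2.72 without uninjured replicate 41. zic-2 (dd_15531), a zinc-finger factor, was read in regenerating positive replicate 44 at 544 CPM and in uninjured positive replicates 5 and 45 at 28.6 and 28.5 CPM. It was also read in 5 of 51 negative regenerating cells, and was not called there (log2 fold 0.30). Its call as higher in uninjured cells was lost after thinning, with a pseudocount of 10 CPM, and without replicate 45 (0.46). ZicA (dd_22585) had 0 reads in all 4 classes, and pitx (dd_15253) had 0 reads in positive regenerating and 0.284 CPM in positive uninjured cells, against 0.770 CPM and 1.31 CPM in the negative cells of the same conditions.

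Posterior markers were called in few cells or not at all. Wnt11-2 (dd_16209), a posterior Wnt ligand, was read in 12 of 14 positive and 30 of 51 negative regenerating cells, at 302 CPM in positive and 188 CPM in negative cells, and had 193 CPM in positive and 336 CPM in negative uninjured cells, with no call in either. wnt1 (dd_28398) was read in uninjured positive replicates 5 and 8, at 224 and 49.6 CPM, and summed to 5.04 CPM in positive and 0.482 CPM in negative uninjured cells, a call as higher that was lost without replicate 5 (log2 fold 0.88). islet1 (dd_8820), a homeobox gene of the posterior pole, was read in 1 positive and 1 negative regenerating cell, at 394 and 486 CPM, and was called higher there (25.7 CPM in positive and 4.68 CPM in negative cells). Without regenerating replicate 44 its log2 fold was −2.51. In uninjured cells islet1 was called lower (0.0710 CPM in positive and 25.3 CPM in negative cells), but only 1 of 41 negative cells had reads of it after thinning. That call was lost without the cells with a wnt1 read (log2 fold −0.0043). Over the study's list of transcripts higher in posterior pole cells, which was chosen on these libraries and includes the same non-pole cells as its controls, 12.7% of those tested were higher and 33.1% lower in regenerating positive cells (median −0.50), and 18.99% were higher and 39.2% lower in uninjured positive cells (median −0.92), beside 9.63% and 33.4% of all transcripts in regenerating and 14.8% and 38.3% in uninjured cells. In the study's anterior pole list from uninjured pieces, 19.8% of members were higher and 24.2% lower in regenerating cells, and 27.6% and 32.3% in uninjured cells. In its list from regenerating pieces, 27.7% were higher and 27.7% lower in regenerating cells, and 27.8% and 33.3% in uninjured cells. The nr4A-positive muscle list, also chosen by the study, had 6.24% higher and 26.4% lower in regenerating cells, and 11.5% and 34.6% in uninjured cells.

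**Figure D5:**
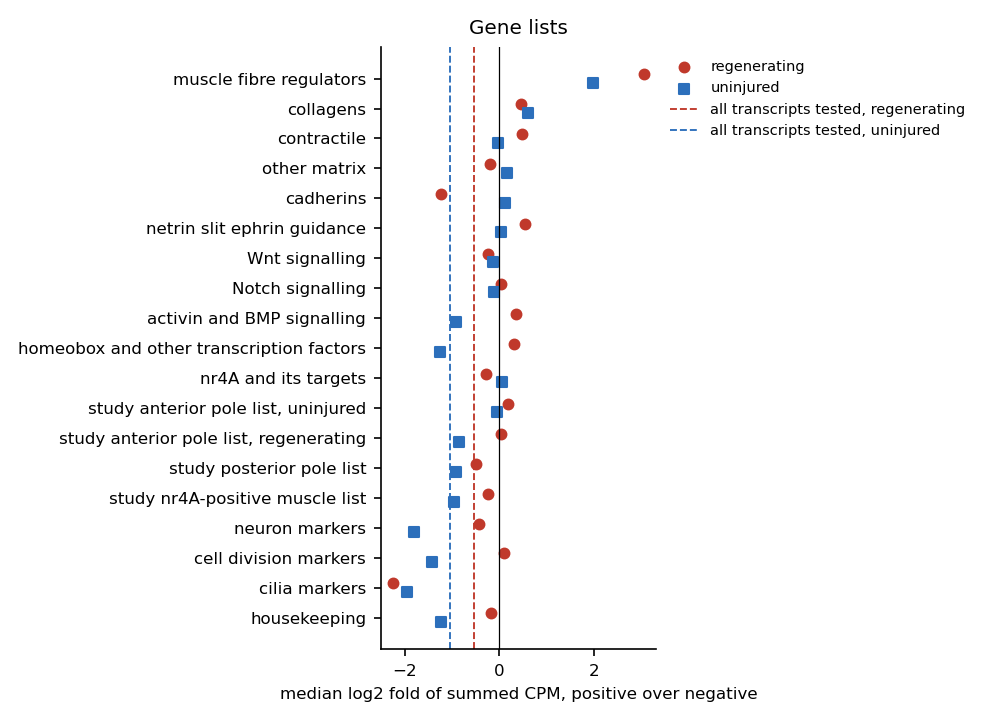
Median log2 fold of summed CPM, positive over negative, of 19 gene lists in regenerating cells (red circles) and uninjured cells (blue squares); dashed lines mark the medians over all transcripts tested, −0.54 in regenerating and −1.05 in uninjured cells. Of the lists drawn, the fibre regulators lie farthest right, at 3.06 and 1.98, and the cilia markers farthest left, at −2.24 and −1.96. The fibre regulators are drawn although only 3 members were tested, and their uninjured median was −0.95 without replicate 40. Another 6 lists with 1 to 4 members tested (epidermis, gut, FGF receptors, hedgehog reception and the known poles) are not drawn.

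Of Wnt pathway members 2 of 15 tested were higher and 5 lower in regenerating cells (median −0.24), close to the 9.63% and 33.4% of all transcripts, and 5 of 13 were higher and 1 lower in uninjured cells (−0.13), beside 14.8% and 38.3%. The receptor gene ror (dd_7911) was lower in both, with 108.02 CPM in positive and 232 CPM in negative regenerating cells and 10.4 CPM in positive and 303 CPM in negative uninjured cells. Its call in the blastema was lost without replicate 16, 32, 37 or 62 (log2 fold −0.86 at the highest), and in both conditions when any read made a cell positive. Within the regenerating cells with a fibre regulator ror was higher, with 112.5 CPM in positive and 15.7 CPM in negative cells. Among 5 Notch pathway members NOTCH2 (dd_13045), named for a Notch receptor, was higher in both conditions, with 94.7 CPM in positive and 4.30 CPM in negative regenerating cells and 197 CPM in positive and 12.2 CPM in negative uninjured cells. It was read in 3 of 14 and 4 of 11 positive cells. DLL1 (dd_13823), named for a Notch ligand, had 1147 CPM in positive and 23.4 CPM in negative uninjured cells, but 97.3% of the positive reads lay in replicate 42 and the log2 fold was 0.77 without it.

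Matrix and adhesion genes are set beside 9.63% higher and 33.4% lower of all transcripts in regenerating cells, and 14.8% and 38.3% in uninjured cells. Of 13 collagens, 1 was higher in regenerating (median 0.45) and 2 in uninjured positive cells (0.61), and none was lower in either. Among 15 other matrix transcripts tested, 5 were higher and 4 lower in regenerating cells, and 6 higher and 3 lower in uninjured cells. KAL1 (dd_6746), one of several transcripts named for the matrix protein anosmin, had 259 CPM in positive and 12.8 CPM in negative regenerating cells, and 146.3 CPM in positive and 9.74 CPM in negative uninjured cells, where 89.6% of the reads lay in replicate 47 and the log2 fold was 0.75 without it. Within the regenerating cells with a fibre regulator it was not called (log2 fold 2.83 for the sums and 0.32 for the means). Another KAL1 transcript, dd_13188, the study's pole gene kallmann1, had a log2 fold of −0.43 in regenerating cells, without a call. It was read in 2 of 14 positive and 12 of 51 negative regenerating cells, and in 1 of 11 and 15 of 41 uninjured cells. Of 10 cadherins tested, 2 were higher and 5 lower in regenerating cells and 3 higher and 4 lower in uninjured cells, with pcdh11y and DCHS1 the 2 in the blastema. Of 13 guidance molecules and receptors, 4 were higher and 2 lower in regenerating cells and 3 higher and 4 lower in uninjured cells. The netrin receptor netR (dd_11409) had 523 CPM in positive and 276 CPM in negative regenerating cells, not called, and 1287 CPM in positive and 10.3 CPM in negative uninjured cells, 83.8% of it in 1 cell. Transcripts that carry the same gene name may share reads.

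The same shares of all transcripts, 9.63% higher and 33.4% lower in regenerating and 14.8% and 38.3% in uninjured cells, stand beside the lists that follow. Of 13 contractile transcripts, 0 were higher and 1 lower in regenerating cells (median 0.48), and 0 higher and 2 lower in uninjured cells (−0.04). ATP2A2 (dd_1772), the calcium pump of the sarcoplasmic reticulum, had 3463 CPM in positive and 2222 CPM in negative regenerating cells. The nuclear receptor nr4A (dd_12229), expressed in planarian muscle, had 140.5 CPM in positive and 287 CPM in negative regenerating cells, and 185 CPM in positive and 94.02 CPM in negative uninjured cells, with no call. Over nr4A and its targets 2 of 9 tested were higher and 0 lower in regenerating cells, and 2 of 10 higher and 1 lower in uninjured cells, col21a1 being among the higher ones in both. Of homeobox genes and other transcription factors, 8 of 21 tested were higher and 8 lower in regenerating cells (median 0.30), and 5 of 24 higher and 13 lower in uninjured cells (−1.25). Of cell division markers, 2 of 8 were higher and 3 lower in each condition. The FGF receptor and nou-darake family had 1 member tested in regenerating cells and 4 in uninjured cells, and all of them were lower, FGFR4 among them. The other 3, of the nou-darake family, were scarce in uninjured cells, with 0 reads in positive and 2.07 to 5.82 CPM in negative cells.

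Markers of other cell types are read against 33.4% of all transcripts lower in regenerating cells and 38.3% in uninjured cells. The epidermal gene agat-1 (dd_920) had 1.08 CPM in positive and 970 CPM in negative regenerating cells, and 0.0710 CPM in positive and 868 CPM in negative uninjured cells. It was read in 2 of 14 positive and 9 of 51 negative regenerating cells and in 0 of 11 and 8 of 41 uninjured cells, and without the cells low in collagens its regenerating log2 fold was 0.0071. Of cilia markers 6 of 8 tested were lower and 1 higher in regenerating cells, and 7 of 10 lower and 1 higher in uninjured cells, while of neuron markers 2 of 8 were lower and 2 higher in regenerating cells, and 5 of 11 lower and 3 higher in uninjured cells. As shares, 75% and 70% of the cilia markers and 25% and 45.5% of the neuron markers tested were lower, in regenerating and uninjured cells. The summed cilia markers had medians of 0 CPM in positive cells of both conditions, and 4.598 CPM in negative regenerating and 14.9 CPM in negative uninjured cells. The gut marker GATA456-2 (dd_9910) had 0 reads in positive and 14.3 CPM in negative regenerating cells, and 0.0710 CPM in positive and 14.6 CPM in negative uninjured cells. Of 13 housekeeping transcripts 0 were higher and 2 lower in regenerating cells, and 3 higher and 6 lower in uninjured cells. The part of such reads in the lower calls was not tested.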

How the data were processed

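Single planarian cells were sequenced after Smart-seq2, and the authors deposited raw read counts per transcript contig for 152 libraries. CASAVA 1.7.0, Trimmomatic 0.32 and Bowtie are named in the submitters' processing notes, while how reads were counted is not stated there or in the methods. A second deposited table holds the authors' SCDE results for pole against non-pole cells (log2 folds, Z scores), of which only the list of contigs was used. The 6 rows outside that list (63.6% of all reads) were left out, and rows of 1 contig number were summed to 26399 transcripts. Near-identical libraries (6 pairs of uninjured non-pole cells, chi-square per degree of freedom 1.28 to 7.41, against at least 22.2 in other pairs) were summed to 1 cell each, and 12 cells under 50000 reads were dropped. Doublets were not called, since cells were sorted singly. More libraries carry the non-pole label than the study's methods describe.

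Reads were summed per class and scaled to CPM. Sums carry exact Poisson, ratios conditional binomial and shares of cells Clopper-Pearson intervals at 95%. A class without reads was given a limit of 3 reads. The rule for named transcripts took, per condition and among widely read calls, the 10 highest and 5 lowest folds, ranked by the smaller of the folds of sums and means (15 and 10 for both conditions together), the same among annotated transcripts, and members of the gene lists. The members and lists were chosen with earlier results of these data known. Alternatives covered TMM scaling (edgeR 4.0.16), weighting of cells, depth, filters, pseudocounts of 0.1 and 10 CPM, other definitions of positive cells, and each positive cell left out. Calls were tested on simulated data. Python 3.11.15, numpy 2.4.6, scipy 1.17.1 and pandas 2.3.3 were used.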

Additional observations from a re-analysis of the deposited data

Results flagged for a closer look

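Among the pole cells, whose groups are small enough for a check on single far values, 3 values stood apart from the rest of their group by Dixon's criterion, which by chance alone picks out a value in some groups. Follistatin was 1020 CPM in 1 of 7 uninjured pole cells and 0 CPM in the other 6. dd_14068, one of the transcripts higher in positive cells of both conditions, was 15472 CPM in 1 of 5 regenerating pole cells and 0 CPM in the other 4. In uninjured pole cells dd_14068 was 0.242 CPM in 1 of 7 cells and 0 CPM in the other 6. That value is below what 3 reads would give in any of these cells (0.726 CPM at the lowest). In all 3 cases every other value of the group was 0, so that any read at all would have met the criterion. No explanation was tested for any of them.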

How the results depend on the processing

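The numbers of called transcripts depend on the filter and the pseudocount more than on any single cell. Requiring at least 100 reads left 763 higher (8.13% of those tested) and 2673 lower (28.5%) in regenerating positive cells, and 1.44% higher and 1126 lower (12.9%) in both conditions. A pseudocount of 10 CPM left 549 higher (4.08%) and 1480 lower (11.002%) in regenerating cells, 1219 higher (7.06%) and 2455 lower (14.2%) in uninjured cells, and 95 higher (0.763%) and 530 lower (4.26%) in both. With all cells thinned to 50000 reads, 3895 were lower in uninjured cells (39.04%) and 1141 in both (14.2%). Summed CPM alone gave 328 higher in both (2.63%), and mean CPM over cells alone 448 (3.599%). Within regenerating cells with a myoD or nkx1-1 read, chosen after seeing the data, 2799 were lower (27.7%). All 15 of these counts differ from the reported ones by more than 1.5 times, and the other 69 of such counts did not. Leaving out each positive cell in turn gave 9.36 to 10.02% higher and 33.5 to 34.9% lower in regenerating cells, 13.6 to 15.6% higher and 37.5 to 42.6% lower in uninjured cells, and 1.452 to 1.74% higher and 14.99 to 16.9% lower in both. TMM scaling moved the uninjured median of all transcripts to −0.80.

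Some directions turned round, and the cause was not tested. When any read made a cell positive, the regenerating list medians were 3.14 for the FGF receptor and nou-darake family and 0.012 for cadherins. Among regenerating cells with at least 200000 reads the known anterior pole list had −2.10. Among regenerating cells with a fibre regulator, cilia markers had a median of 0.36, and log2 folds were 0.16 for agat-1, 2.77 for ror, 0.46 for dd_9259, −0.13 for col21a1 and −0.30 for nkx1-1. Reads of nkx1-1 helped to choose those cells, so that its value there is a description only. Without cells low in collagens agat-1 had 0.0071 in regenerating cells, and with positive set at 100 CPM notum had −2.72 in uninjured cells. With each positive cell left out in turn, medians ran from −0.86 to 1.69 for the known posterior pole in regenerating cells, with replicate 44 deciding the sign, and from −0.95 to 2.36 for the fibre regulators in uninjured cells (replicate 40). Log2 folds ran from −0.58 to 3.08 for regenerating notum (replicate 5), −2.72 to 2.98 for uninjured notum and −0.0080 to 6.02 for uninjured nkx1-1 (both replicate 41), −1.90 to 2.36 for uninjured snail-like (replicate 40), −0.81 to 1.85 for uninjured egf-6 (replicate 47) and −2.51 to 2.46 for regenerating islet1 (replicate 44). No paired analysis was possible because cells carry numbers in accession order only and no test was made. Depth limits what a negative cell can show, and 1 sample per condition leaves the variation between animals unknown.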
